A study of Mus musculus with 20 samples.

Results

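The cytosolic ribosomal protein genes were taken as the protein-coding genes with a symbol of the form Rpl or Rps plus a number, with Rplp0, Rplp1, Rplp2 and Rpsa added. Kinases of the Rps6k group and pseudogenes were left out. The rule gave 83 of the 46983 genes in the tables: 31 small-subunit proteins, 43 large-subunit proteins, 3 stalk proteins and 6 paralogs of core proteins. Symbols of 5 further genes matched the pattern but are annotated as pseudogenes (Rps3a2, Rps3a3, Rps4l, Rps12l1 and Rpl6l). A filter on low counts kept 80 members among 14875 tested genes.

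Bulk total RNA was sequenced from CD31+ endothelial cells of E0771 tumours, a mouse mammary carcinoma line. All hosts were C57BL/6J mice that had received 500000 tumour cells in a mammary fat pad, and tumours were taken at 500 mm3. The 20 libraries fall into 6 hosts. CD4+ T cell competent ones, in the submitters' terms, are Tie2Cre (n = 3), CD8KO (n = 3) and WT (n = 4). CD4+ T cell deficient ones are Tie2Cre;H2Ab fl/fl (n = 4), written Tie2Cre_H2Abf in the titles, TCRKO (n = 3) and CD4KO (n = 3). Tie2Cre is a Cre recombinase whose promoter is active in endothelial and in many blood cells, and the floxed H2Ab allele encodes an MHC class II chain. The alleles behind CD4KO, CD8KO and TCRKO, and the ages of the mice, are not given in the labels. Libraries carry the host and the number from their title, and nothing states that each is an animal of its own. The p-values therefore measure only the spread between these samples, which may be technical.

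The ribosome is built from a small and a large subunit, in each of which one copy of many different proteins sits on ribosomal RNA. The mRNAs of these proteins are short and abundant. Most begin with a terminal oligopyrimidine tract, a C followed by a run of C and T, through which the mTOR pathway and the RNA-binding protein LARP1 control their translation together. In endothelial cells, as in other tissues, their supply is tied to growth.

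The start-site sequences show this feature in some members. RefSeq promoters (GRCm38.p6, 250 bases before to 50 after the annotated start) were found for 63 of the 83 members, in 75 entries. A tract of C and at least 4 further C or T began exactly at the annotated start in 13 of the 75 entries (17.3%), against 2.51% of all 32851 promoters in the table. Within 5 bases on either side of the start such a tract began in 41.3% of member entries and in 18.3% of all promoters. Each window below runs from 20 bases before the start to 10 bases from it, read 5′ to 3′ on the gene's strand, and capitals mark the tract. The first 5 were chosen as members with a tract that the results below return to, and the last 2 as paralogs without one at the exact start, which most core members in the table lack too. In Rpl22l1 a tract begins within 5 bases of the start, and in Rpl7l1 none does.
Rps6, chr4:86857358-86857387, minus strand: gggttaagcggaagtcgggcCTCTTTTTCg
Rps27, chr3:90213639-90213668, minus strand: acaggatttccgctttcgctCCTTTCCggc
Rpl38, chr11:114668560-114668589, plus strand: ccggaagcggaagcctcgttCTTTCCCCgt
Rplp2, chr7:141447631-141447660, plus strand: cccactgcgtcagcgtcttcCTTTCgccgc
Rpl35, chr2:39005122-39005151, minus strand: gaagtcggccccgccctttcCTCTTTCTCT
Rpl22l1, chr3:28805488-28805517, plus strand: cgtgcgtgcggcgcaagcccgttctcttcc
Rpl7l1, chr17:46782647-46782676, minus strand: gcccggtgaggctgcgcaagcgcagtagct
The Rps6 and Rpl38 windows also hold GGAAG just upstream of the start. The longer motif CCGGAAG, the core bound by ETS family factors, was found on either strand of the whole 300-base promoter in 36% of member entries and 8.86% of all promoters. AAGATGG, part of the YY1 motif, was present in 16% against 6.34%, and the E-box CACGTG in 10.7% against 7.15%. TATAAA was found in 9.33% of member entries and 13.6% of all promoters. These matches describe the letters only, and an annotated start can lie some bases away from the start used.

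Total counts per library ran from 1543880 to 11478932. Members took 2429 counts in WT_9771 and 139928 in CD8KO_9752, with 79 to 82 of the 83 detected in each library. The protein-coding share of all counts (members and satellite-like genes left out) was 10.02% to 36.6% in 19 libraries and 78.8% in CD8KO_9752. Satellite-like repeats took up 47.1% of WT_9771 and 19.7% of Tie2Cre_9501, and at most 2.53% of any other library. Results for TCRKO against WT, the short mRNA share and the olfactory receptor share are also given without these 2. Markers of the labelled cell type were present. The 12 endothelial markers summed to between 2535 and 7738 CPM (counts scaled to a common library size with TMM factors), and Pecam1, which encodes CD31, averaged 973 CPM.

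On the length-corrected scale of the deposited TPM (a transcript level corrected for length and library size), the members were spread over a wide range. Rpl41, which encodes the smallest ribosomal protein, had the highest mean over the 20 libraries at 615 TPM. Other members with high levels were Rps2 (580), the stalk protein gene Rplp1 (575), Rpl8 (463), Rps18 (437), Rps15 (433) and Rpl29 (400.0). CD8KO_9752 raises these means, at 3659 TPM for Rps2, 3350 for Rplp1 and 2328 for Rpl29. The order without that library is not reported here. The lowest 8 began with the tissue-restricted paralogs Rpl10l, which had 1 count in 1 library, Rpl3l, with 1 count in each of 3 libraries, and Rpl39l, with at most 4 counts in any of 4 libraries. These 3 had too few counts for any test. Next came the paralogs Rpl7l1 (6.54 TPM) and Rpl22l1 (10.1), and then the core genes Rpl5 (20.5), Rpl27 (20.6) and Rpl37 (21.3). The low TPM of Rpl5 and Rpl27 goes with uncertain read assignment, since RSEM's posterior SD was 17.6% and 13.9% of their counts, the only members above 10%, where the median member had 1.11%. Both have near-identical processed pseudogenes, and their part in these values was not tested. Named ribosomal protein pseudogenes held counts equal to between 5.43% and 9.29% of the member counts in a library.

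Summed member counts made up between 0.646% (WT_9748) and 3.67% (TCRKO_9767) of all protein-coding counts, a range wider than the gap between most hosts. The 4 WT libraries stood at 0.646%, 1.21%, 1.19% and 2.10%, and the 4 Tie2Cre_H2Abf libraries at 1.16%, 1.86%, 1.03% and 1.06%. CD8KO gave 1.18%, 2.71% and 2.58%, and Tie2Cre 1.81%, 1.35% and 2.97%. CD4KO held both a high and a low library, at 3.52%, 1.72% and 1.00%, and TCRKO stood at 2.47%, 3.25% and 3.67%. All 3 TCRKO libraries lay above all 4 WT libraries, and every other host overlapped WT. The host means were 1.28% ± 0.392 (SD, n = 4) in Tie2Cre_H2Abf, 1.29% ± 0.603 (n = 4) in WT and 2.04% ± 0.833 (n = 3) in Tie2Cre. They were 2.08% ± 1.30 (n = 3) in CD4KO, 2.16% ± 0.851 (n = 3) in CD8KO and 3.13% ± 0.613 (n = 3) in TCRKO. Hosts that are neighbours in this order had overlapping libraries. In bulk samples more RNA per cell and more cells of a type with high ribosomal protein RNA cannot be told apart.

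**Figure D1:**
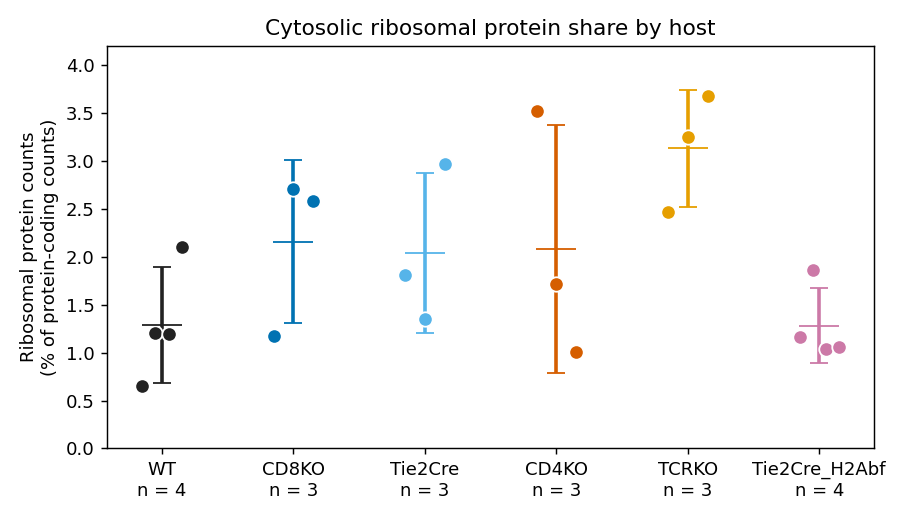
Summed counts of the 83 ribosomal protein genes as a percentage of all protein-coding counts (y axis) in each library (points), by host (x axis), with the host mean and SD as a bar. The 3 TCRKO libraries sit at 2.47% to 3.67%, above the 4 WT libraries at 0.646% to 2.10%, and the CD4KO libraries span 1.00% to 3.52%.

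The members varied together across libraries. Over the 20 libraries the median correlation of log2 CPM between pairs of members was 0.79, a description, since all members share the same libraries. Rps16, a small-subunit protein gene, and Rplp1 followed the median of the other members most closely (r = 0.98 and 0.97). Rpl7l1 (0.02), Rpl7a (0.24) and Rpl4 (0.39) followed it least. The SD of log2 CPM over libraries had a median of 0.89 per member and fell to 0.42 once the median member of each library was subtracted.

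After that subtraction the steadiest members with at least 10 CPM were Rps16 (SD 0.19 on the log2 scale), Rps23 (0.21), Rps20 (0.22) and Rpl23 (0.24). The least steady were Rpl7l1 (0.93), Rpl5 (0.85), Rps29 (0.83), Rpl7a (0.80), Rps27 (0.79) and Rpl4 (0.74). Before subtraction the SDs of Rpl7l1 and Rpl7a were 0.55 and 0.50, below the median member, and those of Rps29 and Rps27 were 1.45 and 1.42, above it. Rps27 and Rps29 have 2 of the shortest mRNAs among the members (mean effective lengths of 93.5 and 107.5 bases), and Rpl7l1 has one of the longest (2295 bases). Effective length is the number of positions at which a fragment can start on a transcript. Over the 80 members the SD before subtraction fell with it (Spearman rho -0.70 across genes, which are not independent replicates), while the SD after subtraction did not (rho -0.04).

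**Figure D2:**
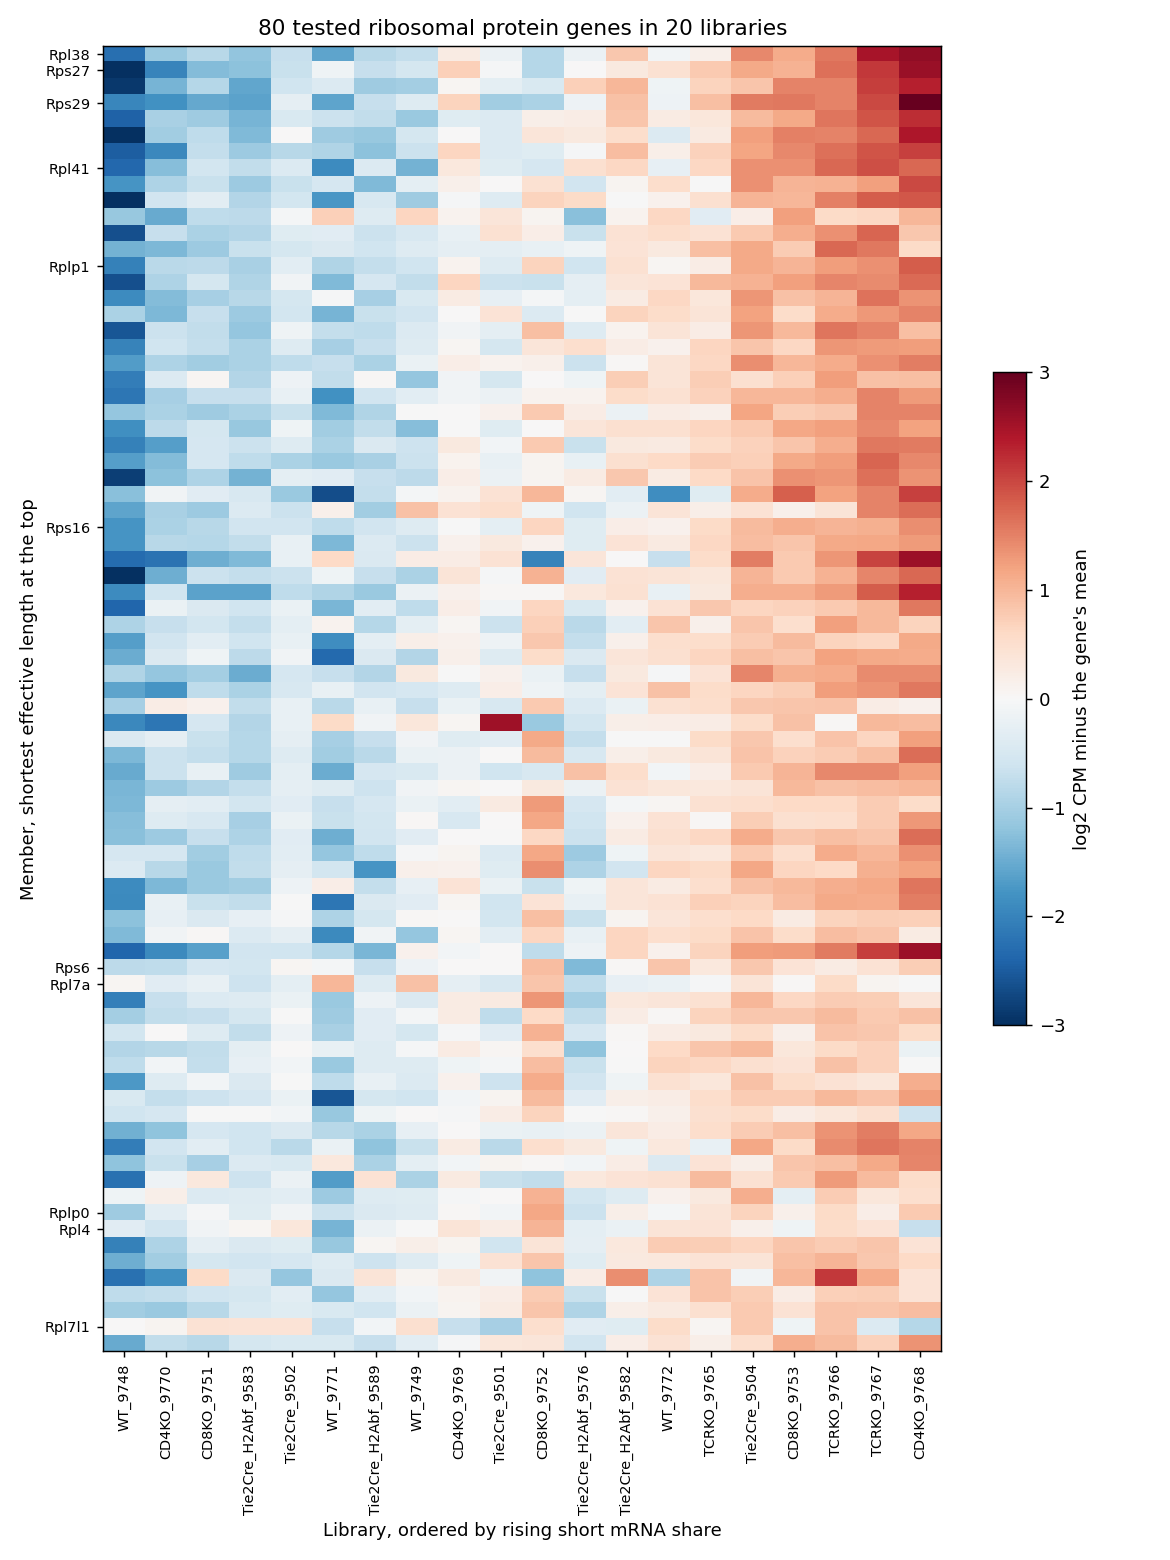
log2 CPM minus the gene's own mean (colour) for the 80 tested members (rows, shortest effective length at the top, a few named) in the 20 libraries (columns, ordered by rising short mRNA share, which the text defines). WT_9748 at the left is low and CD4KO_9768 at the right is high in nearly all rows, with the strongest colours in the short genes at the top, and Rpl7a and Rpl7l1 are pale.

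The design sets 6 hosts against each other to ask what loss of CD4+ T cells changes in tumour endothelium. For the ribosomal protein genes no comparison of hosts had a member past an adjusted p of 0.05 (edgeR quasi-likelihood test, Benjamini-Hochberg over the 14875 genes). These tests miss most changes of moderate size. In simulated counts, TCRKO against WT recovered 1.5% of genes changed by 1 on the log2 scale and 16.4% of those changed by 2. For deficient against competent it was 25.4% and 85.1%. An absence of calls between hosts therefore does not show an absence of change. The median member was higher than WT in TCRKO, CD4KO, CD8KO and Tie2Cre in every alternative run, and its sign in Tie2Cre_H2Abf depended on the scaling and on single libraries. Since 5 comparisons share the WT libraries, their values stand side by side as values of the same 4 controls.

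TCRKO against WT had the largest difference. The median of the 80 members was 1.35 on the log2 scale against -0.20 for all tested genes, and 78 of 80 had a positive value. No member was called (0.0269% of all genes were), the smallest adjusted p being 0.18 for Rpl41. At an unadjusted p under 0.05 there were 55 of 80, where 8.65% of all genes reached it. In 52 of 80 members each TCRKO library was above each WT library, where 5.57% of all genes were. DESeq2 called 2 members, among them Rpl41 (2.74), and limma-voom 0. The share of all genes that these 2 methods called is not reported here. Without the 2 satellite-rich libraries the median member was again 1.35, with 0 called.

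Rpl41 stood at 10.4, 20.6, 14.8 and 46.6 CPM in WT and at 85.9, 185 and 214 CPM in TCRKO. The TCRKO libraries were all higher, with a log2 fold change of 2.80 ± 0.66 (SE). The gene lies on chromosome 10, 128548114 to 128549305, minus strand (GRCm38). Rps12 gave 2.42 ± 0.68 and Rpl5, whose protein binds Mdm2 with Rpl11 and 5S RNA when ribosome assembly fails, gave 2.18 ± 0.65 (adjusted p = 0.33 and 0.40 by edgeR). Only 2 members had values below 0: Rpl7a (-0.29 ± 0.49), a large-subunit gene at 17.2, 31.2, 33.6 and 14.4 CPM in WT and 16.3, 24.8 and 17.7 CPM in TCRKO, and Rps27l (-0.03), a p53-responsive paralog.

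The classes had similar values, apart from the paralogs. The median was 1.25 over the 31 small-subunit genes, all of which were positive, and 1.45 over the 43 large-subunit genes. The stalk genes, whose proteins recruit translation factors, had a median of 1.17. The scaffold Rplp0 stood at 94.0, 152, 126 and 190 CPM in WT and at 257, 297 and 227 CPM in TCRKO (0.89 ± 0.37), without overlap. Rplp1 stood at 14.4, 39.3, 32.0 and 62.3 CPM and then at 69.5, 143 and 155 CPM, without overlap. Rplp2 stood at 3.81, 11.5, 9.85 and 20.8 CPM and then at 14.0, 29.8 and 33.9 CPM, where 1 WT library was above the lowest TCRKO library. Rpsa, a small-subunit protein also known as a laminin receptor, stood at 102, 164, 77.1 and 230 CPM and then at 315, 286 and 293 CPM. The 3 tested paralogs had a median of 0.09.

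Rps6, the small-subunit protein phosphorylated by the S6 kinases, had one of the smaller values, at 27.1, 42.5, 45.1 and 84.6 CPM in WT and 58.4, 56.3 and 63.7 CPM in TCRKO. Its TCRKO values lie inside the WT range (0.25 ± 0.47). Rpl11 stood at 8.94, 27.6, 7.39 and 47.3 CPM in WT and at 58.1, 78.0 and 76.2 CPM in TCRKO. Rpl22, an RNA-binding large-subunit protein, stood at 3.97, 7.86, 10.7 and 23.9 CPM in WT and at 30.8, 44.4 and 33.9 CPM in TCRKO. Both were without overlap. Its paralog Rpl22l1 overlapped, at 0.166 to 3.28 CPM in WT and 2.14 to 4.55 CPM in TCRKO. Rps27l stayed inside the WT range of 0.993 to 4.92 CPM, at 2.09 to 4.55 CPM in TCRKO.

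The other hosts lay nearer to WT. In CD4KO the median member was 0.85 higher (all genes -0.08), with 74 of 80 positive, 0 called (0% of all genes) and 17 at an unadjusted p under 0.05 (8.58% of all genes). Rpl41 led here too (1.97 ± 0.65), with Rps29 (2.70 ± 1.00), Rps12 (1.84 ± 0.68) and Rpl9 (1.41 ± 0.51), and Rpl7a had the lowest value (-0.74 ± 0.50). This median rests on CD4KO_9768: without it the value was 0.16. In CD8KO the median was 0.81 (all genes -0.18), with 76 positive, 0 called (0%) and 12 at an unadjusted p under 0.05 (10.5%). Rplp0 (1.03 ± 0.37) and Rpl29 (1.01 ± 0.39) stood beside Rpl41 (1.66 ± 0.64) there, and Rps13 was lowest (-0.47 ± 0.62).

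In Tie2Cre the median was 0.71 against WT (all genes 0.02), with 77 positive, 0 called (0%) and 2 at an unadjusted p under 0.05 (6.85%), among them Rpl41 (1.71 ± 0.64). Without Tie2Cre_9504 it was 0.21. Tie2Cre_H2Abf against WT had a median of 0.13 (all genes -0.19), with 55 positive, 0 called (0.00672%) and 2 at an unadjusted p under 0.05 (8.89%). These were Rpl41 (1.36 ± 0.61) and Rpl7a (-1.03 ± 0.46). That median was -0.09 with RLE factors in place of TMM, -0.10 with DESeq2, -0.08 with a filter of 5 CPM, and -0.11 without WT_9748.

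Loss of H2Ab within the Tie2Cre background is tested most directly by Tie2Cre_H2Abf against Tie2Cre. The median member was -0.54 (all genes -0.24) and 5 of 80 were positive, with 0 called (0.0202%) and 1 at an unadjusted p under 0.05 (8.54%). That member was Rpl10, which encodes a late-joining large-subunit protein and lies on the X chromosome, at 33.3, 35.8 and 96.5 CPM in Tie2Cre and 22.3, 29.0, 25.6 and 12.3 CPM in Tie2Cre_H2Abf (-1.31 ± 0.54). The groups do not overlap, but RSEM's posterior SD for Rpl10 was 9.23% of its counts. Each Tie2Cre_H2Abf library was below each Tie2Cre library in 3 of 80 members and in 3.76% of all genes. Rpl5 had the highest value (0.96 ± 0.66). Without Tie2Cre_9504 the median was -0.07. Over all 10 deficient against all 10 competent libraries the median was 0.32 (all genes -0.11), with 65 positive, 0 called (0%) and 2 at an unadjusted p under 0.05 (7.27%), among them Rpl5 (0.97 ± 0.41). Without CD4KO_9768 the median was 0.17.

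A single test for any difference among the 6 hosts called 0 members (0.0605% of all genes), with 8 at an unadjusted p under 0.05 (9.34%), among them Rps12, Rps15, Rpl5, Rpl9, Rpl18 and Rpl41. With the coding share added to the model it again called 0 (0.00672%), with 6 at an unadjusted p under 0.05 (8.29%).

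Whether the level follows the library rather than the host was asked next, first with the coding share. The answer depended on the unit. The deposited median member TPM ran from 14.0 in WT_9771, the library with the lowest coding share, to 657 in CD8KO_9752, the one with the highest. Its correlation with coding share over 20 libraries was r = 0.89 and Spearman rho 0.57, and r fell to 0.56 without the 2 libraries farthest from the median coding share (CD4KO_9770 and CD8KO_9752, the 2 highest). As a share of coding counts the members did not follow it (r = 0.22, rho 0.10; r = 0.25 over the other 18). CD8KO_9752 held 657 TPM but a median of 38.2 CPM, the 8th highest of 20 libraries. TPM divides by all transcripts in a library, so its denominator includes the abundant non-coding RNA of a total RNA library.

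**Figure D3:**
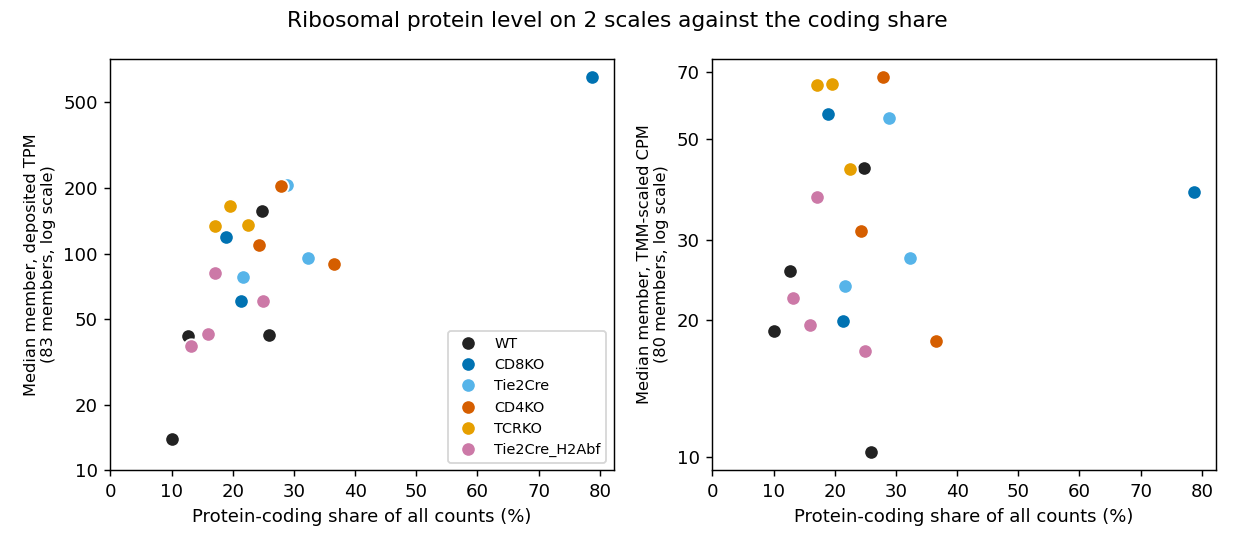
Median ribosomal protein level in each library (points, coloured by host) as deposited TPM over 83 members (left, log scale) and as TMM-scaled CPM over 80 members (right, log scale) against the protein-coding share of all counts. On the left CD8KO_9752 lies far above the rest at 657 TPM and WT_9771 lowest at 14.0, and on the right CD8KO_9752 lies among the others at 38.2 CPM.

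The fitted slopes gave the same picture. Per doubling of the coding share the median member slope was 0.19 on the log2 scale (all genes 0.02, and 0.08 for the members without WT_9771), and 0 members were called (0.0134% of genes), with 10 at an unadjusted p under 0.05 (5.21%). Among those with the smallest p-values were Rpl3 (0.59 ± 0.18), Rplp0 (0.48 ± 0.17) and Rpl5 (-0.93 ± 0.38). With hosts in the model the median slope was -0.02, with 0 called (0%) and 4 at an unadjusted p under 0.05 (3.44%). Its sign rested on single libraries, since it was -0.27 without WT_9772 and 0.28 without CD8KO_9753. Total count called 0 members where 19.4% of all genes were called, with 2 at an unadjusted p under 0.05 (31.4%). The share of olfactory receptor counts, genes of sensory neurons that vary widely between these libraries, called 0 members where 19.3% of genes were called, with 3 at an unadjusted p under 0.05 (30.1%). DESeq2 called Rpl22l1 and Rps13 in both of these and limma-voom 0 members. The share of all genes called by DESeq2 and limma-voom is not reported here.

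A measure of mRNA length followed the members closely. It was added after the data were seen. The short mRNA share was the percentage of coding counts, members and satellite-like genes left out, that fell on genes with a mean effective length under 600 bases, where 58 of the 80 tested members also lie. It ran from 0.969% in WT_9748, the library with the lowest member share, to 5.67% in CD4KO_9768, the library with the second-highest. Over the 20 libraries the member share and the short mRNA share had r = 0.93 and rho 0.91, and r = 0.89 over the 18 libraries left without CD4KO_9768 and TCRKO_9767. Deviations from the host means, which remove the differences between hosts, had r = 0.92. Both shares come from the same libraries, and all these values are descriptions.

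**Figure D4:**
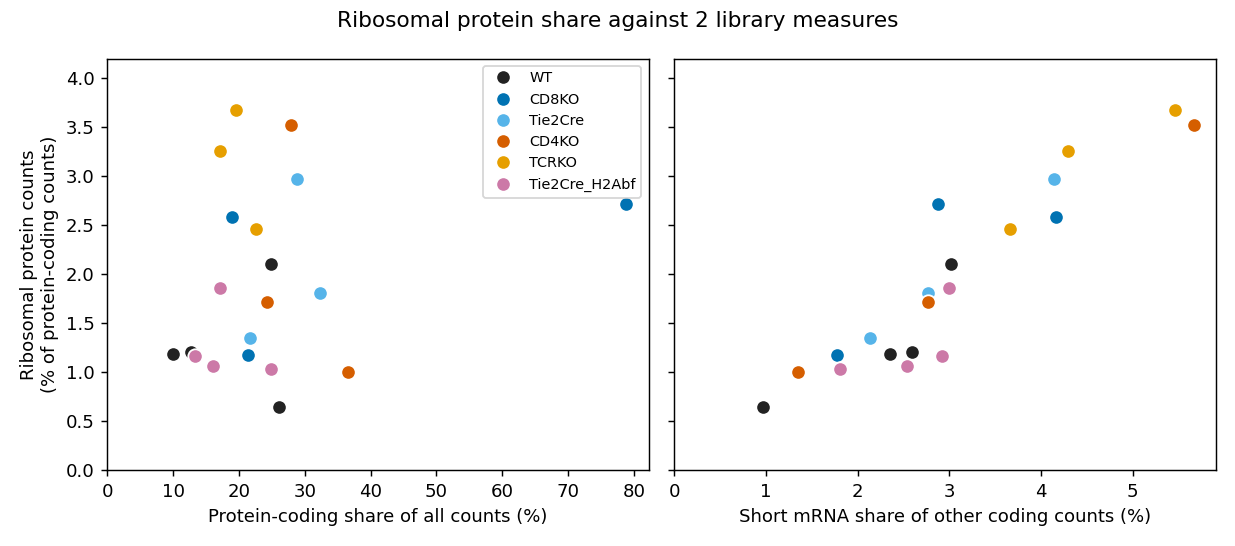
Ribosomal protein counts as a percentage of protein-coding counts (y axis) against the protein-coding share of all counts (left) and the short mRNA share of other coding counts (right), 1 point per library, coloured by host. The points scatter on the left (r = 0.22) and rise together on the right (r = 0.93), from WT_9748 at the bottom to TCRKO_9767 and CD4KO_9768 at the top.

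Per doubling of the short mRNA share 67 of the 80 members rose and none fell past the adjusted p of 0.05 (edgeR), where 2.33% of all genes were called. The median slope was 1.21, where 1 would be in proportion, and 0.03 for all genes. Rps27 led (2.40 ± 0.24, adjusted p = 2.1e-06 by edgeR), followed by Rps26 (1.99 ± 0.21), Rplp1 (1.42 ± 0.16) and Rpl41 (1.71 ± 0.20). Rps27 stood at 0.331 CPM in WT_9748, 1.70 CPM in CD4KO_9770 and 3.03 CPM in CD8KO_9751, which are low in the measure, and at 26.7, 37.5 and 52.2 CPM in TCRKO_9766, TCRKO_9767 and CD4KO_9768, which are high in it. The low values rest on few reads, with 2 counts in WT_9748, 23 in CD4KO_9770 and 21 in CD8KO_9751.

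The 13 members not called were Rplp0, Rps2, Rps3a1, Rps6, Rpl3, Rpl4, Rpl7, Rpl7a, Rpl27, Rpl29 and the paralogs Rpl7l1, Rpl22l1 and Rps27l. Rplp0 had a slope of 0.59 ± 0.17 (adjusted p = 0.055 by edgeR), Rps6 0.66 ± 0.19, Rpl7a 0.15 ± 0.23 and Rpl7l1 -0.06 ± 0.27. With hosts in the model 48 of 80 rose and none fell (0.988% of all genes were called), all 48 among the 67, with a median slope of 1.10. That count within hosts was 1 (of 2 genes called in all) with RSEM's effective lengths as offsets, 21 (of 41) without CD4KO_9768 and 72 (of 863) with DESeq2. Without genes of translation in the measure 66 members rose (2.29% of genes called). Without the 2 satellite-rich libraries 74 members were called over the other libraries, with 1170 genes called in all in place of 346. Within hosts it was 64 members, with 384 genes in place of 147.

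Related measures pointed the same way. The share of counts on mRNAs with an effective length over 4000 bases had 57 members falling and none rising (1.65% of genes called). The mean fragment length that RSEM used, between 188.3 and 392 bases, had 27 falling and none rising (2.03%), led by Rps29, Rps27, Rpl35 and Rpl27a. Within hosts it called 1 member, where 29 of all 14875 genes were called.

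The difference between TCRKO and WT varied with length among the members (Pearson r with log2 length -0.58 across the 80 genes, a description). It was -0.61 in CD4KO, -0.51 in Tie2Cre, -0.27 in CD8KO and -0.28 in Tie2Cre_H2Abf, each against the same WT libraries, and 0.19 in Tie2Cre_H2Abf against Tie2Cre. In TCRKO against WT the median of the members was 1.73 at 150 to 300 bases (26 members), 1.09 at 300 to 600 (26), 1.21 at 600 to 1000 (12) and 0.98 at 1000 to 2000 (8). For other protein-coding genes with at least 5 CPM it was 1.54 (40 genes), 0.92 (157), 0.42 (381) and 0.07 (1639) in the same classes. In the 6 members under 150 bases the median was 2.46, led by Rpl38 (2.90), which had only 2, 9, 1 and 17 counts in WT. The other genes under 150 bases had 1.75 (4 genes). The members' median was above that of the other genes in each of these classes, by the least between 150 and 600 bases.

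**Figure D5:**
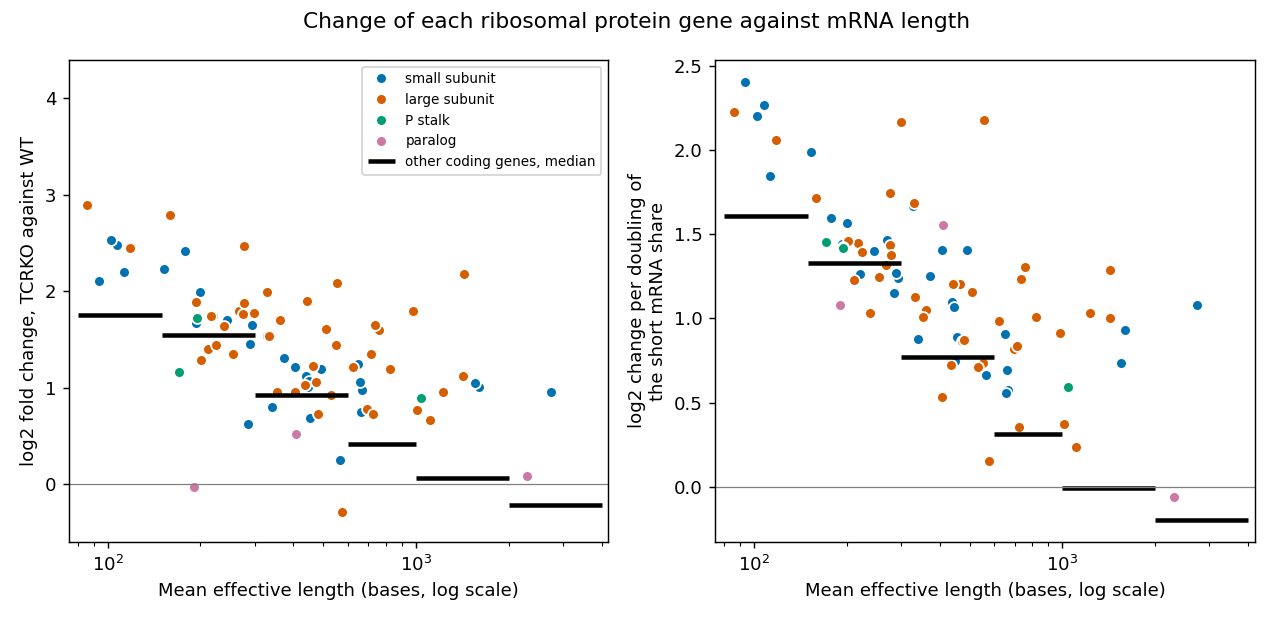
Fitted log2 change in TCRKO against WT (left) and per doubling of the short mRNA share (right) for each of the 80 tested members (points, coloured by class) against mean effective length (log axis). Black bars give the median of other protein-coding genes with at least 5 CPM in each length class. Points and bars are both lower at greater length, and most members over 600 bases lie above the bars. In the right panel the genes behind the bars under 600 bases are part of the measure itself, so their slopes are not an independent comparison.

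TCRKO and WT also did not overlap in the short mRNA share, which was 3.66%, 4.29% and 5.46% in TCRKO and 0.969%, 2.59%, 2.35% and 3.02% in WT. With this share in the model the median member change in TCRKO fell from 1.35 to 0.36 (all genes -0.10). No member was called (0% of genes), and 3 of 80 had an unadjusted p under 0.05 (9.69% of genes), among them Rpl41 (1.29 ± 0.46) and Rps12 (1.10 ± 0.49). The medians of the other comparisons moved to 0.30 in CD4KO, 0.41 in CD8KO, 0.20 in Tie2Cre and -0.06 in Tie2Cre_H2Abf, each against WT. They moved to -0.29 in Tie2Cre_H2Abf against Tie2Cre and to -0.06 in deficient against competent. The test for any host difference then called 0 members (0.0941% of genes), with 0 at an unadjusted p under 0.05 (10.1%). Since TCRKO and WT do not overlap in this share, the 2 cannot be told apart in that comparison.

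Markers of other cells overlapped between TCRKO and WT in their sums. The 8 fibroblast markers summed to between 24.3 and 39.6 CPM in TCRKO and between 0.425 and 32.8 CPM in WT, and the 6 epithelial and tumour markers to between 1.11 and 15.4 CPM and between 0.212 and 4.92 CPM. Of the 7 tested fibroblast markers Col6a2, a collagen chain at a mean of 4.43 CPM, was called higher in TCRKO (6.80 ± 1.23, adjusted p = 0.034 by edgeR), 1 of the 4 genes called in that comparison. Of the 7 fibroblast markers 4 had a positive value there, with a median of 0.08. The median of their summed CPM was 28.5 in TCRKO and 4.71 in WT. Over the 20 libraries that fibroblast sum ran with the member share (rho 0.51). The endothelial markers summed to between 2892 and 4146 CPM in TCRKO and 2535 and 5992 CPM in WT, and over the 20 libraries their sum ran against the member share (rho -0.65). The 10 macrophage markers summed to between 275 and 700.0 CPM in TCRKO and 235 and 734 CPM in WT. None of these lists had a marker at 0 in all 20 libraries. Their part in the results was not tested.

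Genes around the ribosome were read from lists, described here by count and median and not tested as sets. Per doubling of the short mRNA share, the ribosomal proteins outside the symbol rule were read first: 3 of 5 rose (1 of 5 within hosts), among them Fau (1.51 ± 0.22) and Rpl36al (1.40 ± 0.30), while Rack1, with an effective length of 1100 bases, had 0.29 ± 0.18. Of 39 short abundant mRNAs that are not ribosomal 26 rose and none fell, with a median slope of 1.31. S100a6, a calcium-binding protein (2.01 ± 0.21), Tmsb4x, which encodes an actin-binding peptide, and Cox6a1 of cytochrome oxidase (1.44 ± 0.19) led. Genes of this list with a length under 600 bases are part of the measure itself.

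Of the 75 tested mitochondrial ribosomal protein genes 4 rose (median 0.57), among them Mrpl51, Mrpl42 and Mrps21. Of 20 translation factors and other mRNAs with an oligopyrimidine tract 2 rose (median 0.32), Eif3k (1.10 ± 0.22) and Npm1 (0.63 ± 0.17). The elongation factor genes Eef1a1 (0.06 ± 0.14) and Eef2 (-0.12 ± 0.16), whose mRNAs have effective lengths of 1199 and 2787 bases, had slopes near 0. Of 38 ribosome biogenesis genes, 23 genes of mTOR and Myc control and 11 of the p53 response none was called, at medians of 0.36, 0.00 and 0.08. The same lists against WT in TCRKO had medians of 1.58 (proteins outside the rule), 1.21 (short mRNAs), 0.65 (translation factors), 0.56 (mitochondrial ribosome) and 0.38 (biogenesis). None of their genes was called there. Myc itself was 1.12 ± 0.55 and Cdkn1a 1.04 ± 0.46 on the log2 scale (adjusted p = 0.58 and 0.56 by edgeR).

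Members with an oligopyrimidine tract at the annotated start were also shorter. The 13 with a tract had a median change of 1.75 in TCRKO against WT and a median effective length of 268 bases. The 47 tested members with a promoter entry and no tract had 1.29 and 443 bases. Their slopes on the short mRNA share were 1.40 and 1.13, with 12 of 13 and 38 of 47 called. In all 67 of the 80 tested members and 2.33% of all genes were called. The 20 members without a promoter entry had a median change of 1.40 and a slope of 1.14, with 17 called. Rps6, with 9 pyrimidines from its start, had a slope of 0.66, and Rps27, with 7, had 2.40.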

How the data were processed

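Per the labels' protocols, RNA of CD31+ cells was amplified by MATQ and sequenced as Nextera XT libraries, a kit that does not mark strand. The submitters' processing notes name bcl2fastq 2.17, STAR, RSEM 1.2.28, DESeq2 and the build GRCm38. The annotation release and the STAR version are not given in the sources used here. The authors deposited 1 RSEM table per library. Its expected counts are estimated counts per gene that were not normalized, per the file headers, and 76.0% of the members' values were not whole (tolerance 1e-09). Its TPM values are scaled by the authors for length and depth over all genes of a library. Its effective lengths and posterior SDs come from RSEM too.

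Symbols and positions came from GENCODE M21 (46488 of 46983 IDs matched). Counts were rounded and tested with edgeR 4.0.16 in R 4.3.3 (quasi-likelihood, robust, TMM, filterByExpr by host). Pairs of hosts were tested in a 6-host model, CD4 status in a 2-group model, and library measures as log2 slopes with or without hosts. Standard errors come from the F statistic. TMM factors ran from 0.523 to 3.69. CPM values carry a prior of 0.5 before the log2. Calls are Benjamini-Hochberg adjusted p under 0.05 over 14875 genes. Correlations and promoter counts used Python 3.11.15. The scripts were tested on simulated data.

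The members, lists and tests were chosen with earlier results of these data known, and the length measures (under 600 and over 4000 bases, fragment length from genes over 3000 bases) were added after the data were seen. Named genes follow a rule: a fixed list (Rplp0, Rplp1, Rplp2, Rpsa, Rps6, Rpl5, Rpl11, Rpl22 and the paralogs), the 8 highest and 8 lowest by mean TPM, up to 4 members per direction and comparison by p with at least 10 CPM, 4 per slope by p, the 6 most and 4 least variable, and 3 genes per other list. The text gives part of them. Members named otherwise, such as Rpl38 or those in counts of 13 or fewer, were chosen after their values were seen. Alternatives were DESeq2 1.42.0, limma 3.58.1 (voom with sample weights), RLE factors, TMM on coding genes, offsets from effective lengths, all genes kept, only genes with 5 CPM in 10 libraries, a model of only the hosts compared, the coding share as a covariate, and leaving out libraries. Results of some genes are not reported here.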

Additional observations from a re-analysis of the deposited data

Results flagged for a closer look

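Of 64 groups of values checked, 5 held a library whose gap to its nearest neighbour was large against the range of its group, where chance gives about 1 in 20. Tie2Cre_H2Abf_9582 had a member share of 1.86% of coding counts, and the other 3 libraries of that host lay between 1.03% and 1.16%. Among the 10 CD4-competent libraries CD8KO_9752 had a coding share of 78.8%, the next being 32.3%, and a median member TPM of 657, the next being 209. Rpl22l1 stood at 14.4 CPM in Tie2Cre_9501, a satellite-rich library with the smallest total count, against at most 4.18 CPM in the other CD4-competent libraries. Rps27l stood at 0.993 CPM in WT_9748 and between 4.54 and 4.92 CPM in the other WT libraries. WT_9748 is also the library with the lowest member share and the lowest short mRNA share.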

How the results depend on the processing

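Over the alternatives, including each of the 20 libraries left out in turn, 215 values of the median change of the members lay within 0.70 (log2, the spread between libraries of a host) of the reported one and 1 did not. That spread is wide enough to hold the sign turns of Tie2Cre_H2Abf against WT. It also holds the fall from 0.85 to 0.16 in CD4KO against WT without CD4KO_9768. A value within it is therefore not shown to be stable. For counts of members called 423 stayed within 1.5 times and 22 did not. In TCRKO against WT 2 members were called with DESeq2 and 1 (Rpl41) without a filter, and 0 to 2 with a library left out, the 2 (among them Rpl8) without WT_9772. With the short mRNA share in the model the median there was 0.36. Any host difference called 1 member (Rpl41) without a filter, with or without the coding share. Total count called 2 members with DESeq2, 2 with RLE factors, 1 without a filter and 0 to 1 with a library left out, the 1 without CD8KO_9753. The olfactory receptor share called 2, 3 and 1 in the same order, 1 without the satellite-rich libraries and 0 to 4 with a library left out, the 4 without TCRKO_9766 and 1 each without CD8KO_9753, Tie2Cre_9504, WT_9749 and WT_9771. In the main runs total count and the olfactory receptor share called 19.4% and 19.3% of all genes. For the alternative runs in this paragraph the share of all genes called is not reported here. The slope on the short mRNA share had a median of 0.94 with effective-length offsets. Within hosts it called 1 member with those offsets, 25 without a filter, and 21 (without CD4KO_9768) to 54 (without WT_9771) with a library left out, 27 without CD4KO_9770. RLE factors moved the median of all genes by -0.12 in TCRKO, -0.13 in CD4KO, -0.19 in CD8KO and -0.20 in Tie2Cre_H2Abf, each against WT, and by -0.19 in Tie2Cre_H2Abf against Tie2Cre. The cause of these shifts was not tested. Leaving out a library moved the median member change to between 1.16 and 1.77 in TCRKO, 0.16 and 1.24 in CD4KO, 0.55 and 1.23 in CD8KO, 0.21 and 1.11 in Tie2Cre, and -0.11 and 0.55 in Tie2Cre_H2Abf, each against WT. The highest value was the one without WT_9772 in all 5, and the lowest the one without WT_9748, CD4KO_9768, CD8KO_9753, Tie2Cre_9504 and WT_9748 in that order. For Tie2Cre_H2Abf against Tie2Cre it ran from -0.80 (without Tie2Cre_H2Abf_9582) to -0.07 (without Tie2Cre_9504). No paired analysis was possible because each library number is used once. The filter on low counts kept Rpl3l, Rpl10l and Rpl39l out of the tests. The median over deficient against competent libraries ran from 0.17 (without CD4KO_9768) to 0.46 (without Tie2Cre_9504), and the coding share slope from 0.08 to 0.30, or -0.27 to 0.28 within hosts.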

Other observations

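Members named Rps took fewer counts than those named Rpl (stalk genes and paralogs counted by name) in each library, with a ratio of summed counts between 0.541 and 0.887. Fewer genes carry the name Rps, with 31 small-subunit and 43 large-subunit proteins before stalk genes and paralogs are added. The ratio therefore does not compare levels per gene. The lowest was in CD8KO_9751 and the highest in WT_9771, and the host means ran from 0.646 ± 0.035 (SD, n = 4) in Tie2Cre_H2Abf to 0.784 ± 0.074 (n = 4) in WT. All 4 WT libraries were above all 4 Tie2Cre_H2Abf libraries, since the lowest WT value was 0.716 and the highest Tie2Cre_H2Abf value 0.685. This was noticed after the data were seen and was not tested.

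Mitochondrially encoded mRNAs, counted as a percentage of the other coding counts, ran along with the member share over the 20 libraries (r = 0.62, Spearman rho 0.68; r = 0.52 without CD4KO_9770 and WT_9748). Their share was 3.27% to 3.69% in TCRKO and 0.765% to 3.26% in WT, without overlap but with a gap far smaller than either range. The highest CD8KO library, CD8KO_9753 at 3.50%, and the highest Tie2Cre library, at 3.27%, lay inside the TCRKO range. Of 14 tested genes listed as abundant non-coding RNA, 4 rose with the short mRNA share and 1 fell (2.33% of all genes were called). The list also holds long RNAs such as Malat1, and its median slope was 0.51. Rmrp, the RNA of RNase MRP (slope 3.05 ± 0.42), and Rpph1, the RNA of RNase P (1.95 ± 0.32), were among the 4. So was Rn7sk, which holds back transcription elongation (1.82 ± 0.36).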
